A study of Mus musculus with 18 samples.

Results

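After 24 h of thalidomide, embryoid bodies of mouse embryonic stem cells had less RNA of the succinate dehydrogenase subunit gene Sdhc, of the chromosome segregation gene Bod1, of many genes for mitochondrial respiratory complexes and ribosomes, and of the streak gene Sp5 than control bodies of the same hour, and more RNA of Dexi and of several small nucleolar RNAs. The comparison rests on the 3 arrays labelled as exposed for 24 h and the 3 control arrays of 24 h, which are 6 of the 18 arrays of the series and were chosen from the sample labels alone. Stem cells grown in suspension clump into embryoid bodies, lose pluripotency there and start on the germ layers. The exposed group held cells of strain C57BL/6 given 0.25 mM thalidomide for 24 h, starting on day 3 of the embryoid body stage. The control group held cells of the same strain, which the treatment protocol describes as given the vehicle, 0.25% DMSO, from the same day. The series design calls the controls unexposed, and their source names give the hours as time since the bodies formed, so the labels do not settle whether vehicle and stage were matched. Before differentiation both groups had been kept in a medium with leukemia inhibitory factor, BMP-4 and a GSK3 inhibitor. All 6 arrays carry a re-analysis tag in their titles, which the labels do not explain. The other 12 arrays are exposed and control groups of 48 h and 72 h, with 3 arrays each, and the exposed arrays of those times lack the tag.

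The cellular target of thalidomide is cereblon, which picks the proteins that a ligase built on Ddb1 and Cul4a or Cul4b tags with ubiquitin for the proteasome, and the drug alters that choice. The drug is a human teratogen that harms the limbs, ears and heart, and rodent cereblon differs from the human protein at a residue needed for the loss of several of the drug-induced substrates. Arrays of this kind read RNA, so a loss of protein is not seen by them. Stem cells in embryoid bodies of this age pass through a state like the primitive streak, where the embryo's mesoderm and endoderm arise, and Wnt, Nodal and FGF signals drive that step. Mitochondrial function rests on nuclear genes for the respiratory complexes, for the enzymes of the tricarboxylic acid cycle and for a separate mitochondrial ribosome.

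Each value is a log2 signal of the gene's probe set, so a difference of 1 is a 2-fold difference, and levels are compared between arrays and not between genes. Differences are exposed minus control, given ± SE, and group levels are means ± SD of 3 arrays. The labels call the 3 arrays of a group biological replicates without naming separate cultures, so p-values measure the spread between these arrays, which may be technical. Adjusted p-values are from limma with Benjamini-Hochberg adjustment over 22180 genes, and a gene passed at an adjusted p under 0.05. Arrays of the same group correlated across genes at r = 0.992 to 0.995, and exposed replicate 1 stood slightly farther from the other exposed arrays (SD of its difference from their mean 0.214) than the others did from theirs (0.173 and 0.195).

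Of 22180 genes, 1521 passed (6.86%), of which 1205 were lower (5.43%) and 316 higher (1.42%) in exposed arrays. Changes were small: the median was -0.36 among the lower genes and 0.36 among the higher ones, with 94 genes at least 1.5-fold lower and 28 at least 1.5-fold higher. For 1512 of the 1521 genes all exposed arrays lay on the same side of all controls. Over all 22180 genes the exposed arrays lay wholly above the controls for 2048 and wholly below them for 3516. Passing genes were picked on these same arrays, so their separation is no further support. Bright genes made up most of the lower group: of the brightest of 4 equal bins of genes by mean signal, 13.3% were lower and 2.2% higher. The median difference over all genes was -0.01, but it ran from 0.05 in the dimmest bin to -0.08 in the brightest. When the arrays were normalized by cyclic loess, which removes such a trend with brightness, 598 genes were lower and 446 higher, so the share of lower genes was 57.3%, against 79.2% before, and 816 genes passed both times with the same direction. The test takes its spread from all 18 arrays. With the 24 h arrays alone 121 genes passed (98 lower, 23 higher, 118 of them shared), and leaving out control replicate 3, exposed replicate 1 or control replicate 1 gave 581, 655 and 665 genes. Of 91 genes named below that passed, 27 passed under every alternative, 59 did not pass with the 24 h arrays alone, and 47 did not pass without at least 1 of the 6 arrays.

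Sdhc, which anchors succinate dehydrogenase (complex II) in the inner mitochondrial membrane, had log2 signals of 7.48, 7.59 and 7.44 in exposed arrays, against 8.78, 8.75 and 8.80 in control arrays. The groups were far apart compared with their spread. The difference was -1.27 ± 0.08, or 2.42-fold lower in exposed arrays (adjusted p = 8.21e-07, limma), the smallest p-value among the genes named here, and it passed under all alternatives. Sdhd, the other membrane anchor, averaged 9.06 ± 0.07 in exposed and 9.27 ± 0.08 in control arrays and missed the threshold (-0.21 ± 0.06, adjusted p = 0.0515, limma). The catalytic subunits Sdha (0.13 ± 0.06, adjusted p = 0.222) and Sdhb (-0.09 ± 0.06, adjusted p = 0.438) did not pass in limma's test either. Sdhb was at 0.00 after cyclic loess, and only Sdha lay above 0 in the list of 8 genes for the enzyme and its assembly factors. Of those 8 genes 4 fell (50.0%, against 5.43% of all genes): Sdhc, and the assembly factor genes Sdhaf1, Sdhaf3 and Sdhaf4. Sdhaf1, whose product helps insert the iron-sulfur clusters, had 6.44, 6.43 and 6.35 in exposed arrays, against 7.13, 7.06 and 6.81 in control arrays. The differences were -0.59 ± 0.09 for Sdhaf1 (adjusted p = 0.0012), -0.45 ± 0.10 for Sdhaf3 (adjusted p = 0.0115) and -0.30 ± 0.06 for Sdhaf4 (adjusted p = 0.0071), all by limma. None of these 3 assembly factor genes passed with the 24 h arrays alone, and Sdhaf3 did not pass without control replicate 3 (adjusted p = 0.0643, limma). A dimmer second probe set of Sdhaf1 had a difference of -0.15. The median of the list was -0.26, against -0.01 for all genes, and the medians of the single exposed arrays were -0.31, -0.21 and -0.32 relative to the control means.

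The genes on either side of Sdhc in RefSeq order, Cfap126 (-0.10 ± 0.12) and Pcp4l1 (-0.01 ± 0.09), did not pass. The same held for the neighbours of Bod1 (Stc2 and D630024D03Rik), of Dexi (Ciita and Clec16a), of Sp5 (Myo3b and Gad1os) and of Bst2 (Plvap and Mvb12a), whose differences ran from -0.21 to 0.25. Of the neighbours of Mrpl34, Dda1 fell (-0.30 ± 0.06, adjusted p = 0.0096, limma) and Abhd8 did not pass. Dda1 encodes a small subunit of Ddb1-containing ligases, and it did not pass after cyclic loess or with the 24 h arrays alone.

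Genes for the other respiratory complexes fell in number and by small amounts. Of 77 genes listed for complexes I, III, IV and V, 23 fell (29.9%, against 5.43% of all genes) and 0 rose. Values below 0 were found for 69, and the median was -0.20. The list counts the pseudogene Atp5c1-ps, which did not pass, under complex V. In the brightest bin 20 of 48 members fell, and 13.3% of all genes of that bin did. Complex I, the NADH dehydrogenase, held 14 of the 23 (of 34 genes measured, median -0.27), complex III held 1 of 8, complex IV 4 of 17 and complex V, the ATP synthase, 4 of 18. The median was -0.25, -0.17 and -0.22 in the 3 exposed arrays, relative to the control means. After cyclic loess 12 members were lower, 1 was higher and the median was -0.16, and with the 24 h arrays alone 2 were lower. Leaving out control replicate 1, control replicate 3 or exposed replicate 1 left 9, 11 and 11 lower members, with medians of -0.20 in each case.

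Ndufb8, an accessory subunit of complex I, had log2 signals of 6.71, 6.80 and 6.61 in exposed arrays, against 7.55, 7.34 and 7.45 in control arrays (-0.74 ± 0.10, adjusted p = 0.000556, limma). Cox6b2, known as the testis form of a complex IV subunit, had 7.39, 7.64 and 7.55 in exposed arrays, against 8.15, 8.11 and 8.07 in control arrays (-0.58 ± 0.10, adjusted p = 0.00375, limma). Neither gene's groups overlapped, and both passed under every alternative. Atp5l, a membrane subunit of the ATP synthase, had 7.70, 8.24 and 8.36 in exposed arrays, against 8.69, 8.79 and 8.78 in control arrays (-0.65 ± 0.15, adjusted p = 0.0185, limma). Its exposed replicate 1 was the lowest of the 6 arrays, and Atp5l did not pass without that array (adjusted p = 0.0851) or without control replicate 3 (adjusted p = 0.0675). Foxred1, a complex I assembly factor among the 10 genes with the largest decreases under the naming rule, had 6.83, 7.0 and 6.53 in exposed arrays, against 7.53, 7.69 and 7.62 in control arrays (-0.82 ± 0.09, adjusted p = 0.000205, limma), with no overlap.

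The mitochondrial ribosome, which makes the few proteins encoded in mitochondrial DNA, moved in the same direction. Of 70 genes 23 fell (32.9%, against 5.43% of all genes) and 0 rose, 66 had values below 0, and the median was -0.19. Of the 48 members in the brightest bin 18 fell, and 13.3% of all genes of that bin did. Large-subunit genes (15 of 43, median -0.19) and small-subunit genes (8 of 27, median -0.20) had similar values. After cyclic loess 12 were lower (median -0.11), with the 24 h arrays alone 5 were lower, and without control replicate 3, control replicate 1 or exposed replicate 1 the counts were 11, 12 and 12. Mrpl34, a large-subunit gene, had 8.02, 7.92 and 7.77 in exposed arrays, against 8.62, 9.02 and 8.65 in control arrays, and the nearest arrays of the groups were 0.60 apart. Its difference was -0.86 ± 0.11 (adjusted p = 0.000533, limma). Mrps21, of the small subunit, had 6.93, 7.18 and 7.05 in exposed arrays, against 7.81, 7.77 and 7.87 in control arrays (-0.76 ± 0.09, adjusted p = 0.000172, limma). Mrpl52 had 8.76, 8.96 and 8.95 in exposed arrays, against 9.56, 9.57 and 9.48 in control arrays (-0.65 ± 0.07, adjusted p = 0.000172, limma). These 3 genes did not overlap between groups and passed under every alternative.

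Of 17 other tricarboxylic acid cycle genes 2 fell (11.8%, against 5.43% of all genes and 13.3% of the brightest bin, which held 16 of the 17): Idh3a, a subunit of the NAD-dependent isocitrate dehydrogenase (-0.48 ± 0.08, adjusted p = 0.00216, limma), and Sucla2, a subunit of succinyl-CoA synthetase (-0.21 ± 0.06, adjusted p = 0.0481, limma). Sucla2 did not pass when any of the 6 arrays was left out (adjusted p = 0.0658 to 0.163) nor after cyclic loess. The median of the list was -0.12, and -0.04 after cyclic loess. Slc2a3, the glucose transporter GLUT3, rose: it had 10.92, 11.05 and 11.10 in exposed arrays, against 10.36, 10.47 and 10.42 in control arrays. The arrays of the groups did not overlap, the difference was 0.61 ± 0.06 (adjusted p = 0.000136, limma), and it passed under every alternative. It was the only 1 of 22 measured genes of the list for glycolysis, glucose transport and hypoxia that passed (4.55%, against 6.86% of all genes). The median of that list was -0.03.

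**Figure D1:**
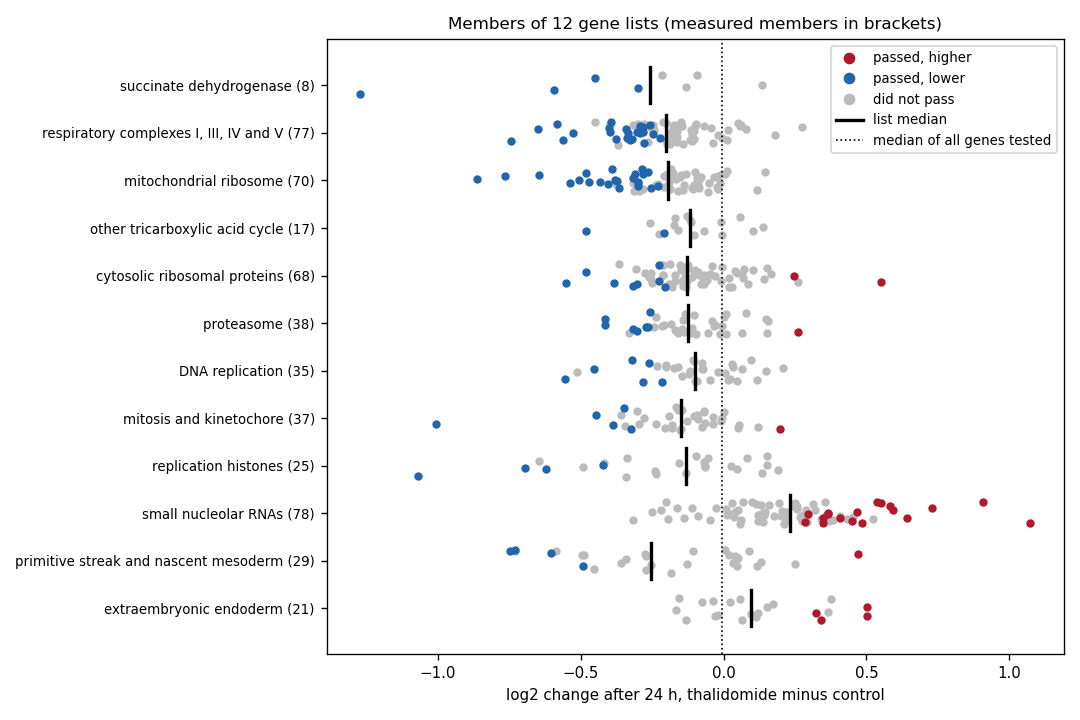
Log2 change after 24 h (exposed minus control, x axis) of each measured member of 12 gene lists (y axis, number measured in brackets), with members that passed in colour, a black bar at the list median and a dotted line at the median of all genes tested (-0.01). The lists for succinate dehydrogenase, the respiratory complexes and the mitochondrial ribosome have medians of -0.26, -0.20 and -0.19, and the small nucleolar RNAs have 18 members that rose and a median of 0.23.

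Bod1, a kinetochore-linked protein needed for chromosomes to attach to both spindle poles, had log2 signals of 8.02, 8.01 and 8.15 in exposed arrays, against 9.05, 9.08 and 9.07 in control arrays. Every exposed array was below every control. The difference was -1.01 ± 0.09, or 2.01-fold lower (adjusted p = 4.97e-05, limma), and it passed under every alternative. A dimmer second probe set named Bod1 had a difference of -0.50 and did not pass. Of 37 genes for mitosis and the kinetochore, 5 fell (13.5%) and 1 rose, with a median of -0.15, and after cyclic loess 3 fell and the median was -0.07. The 34 of them in the brightest bin included all 5 lower genes, and 13.3% of the genes of that bin were lower, so their share was near that background. The others that fell were the spindle checkpoint gene Mad2l1 (-0.45 ± 0.09, adjusted p = 0.00845, limma), the kinetochore gene Ska2 (-0.39 ± 0.09), the kinases Cdk1 (-0.35 ± 0.09) and Aurkb (-0.32 ± 0.09), and the gene that rose was Mad1l1 (0.20 ± 0.05). Cdk1, Aurkb and Mad1l1 were named after their values were seen. Ska2 did not pass without control replicate 1, control replicate 3 or exposed replicate 1 (adjusted p = 0.0687 to 0.0777), and the count of lower genes was 3, 2 and 2 without these arrays.

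Of 35 DNA replication genes 6 fell (17.1%) and 0 rose, with a median of -0.10 and of -0.01 after cyclic loess, when 2 were lower and 1 higher. The brightest bin held 31 of them and 5 of those fell, near the 13.3% of all genes of that bin. Among them were 3 members of the GINS complex, which is part of the replicative helicase. Gins1 had 7.01, 6.89 and 6.92 in exposed arrays, against 7.42, 7.48 and 7.60 in control arrays (-0.55 ± 0.10, adjusted p = 0.00514, limma), and it passed under every alternative. Gins4 (-0.32 ± 0.07, adjusted p = 0.0124), Gins2 (-0.28 ± 0.07, adjusted p = 0.022) and the primase gene Prim1 (-0.45 ± 0.09, adjusted p = 0.00596) also fell by limma's test. Gins4 did not pass without control replicate 1 or exposed replicate 1 (adjusted p = 0.0549 and 0.0521), and Gins2 was named after its values were seen. Leaving out exposed replicate 1, control replicate 1 or control replicate 3 left 2, 3 and 3 lower genes in this list.

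H2bc12, a histone H2B gene, had 9.35, 8.98 and 9.04 in exposed arrays, against 10.15, 10.16 and 10.26 in control arrays, a difference of -1.07 ± 0.10, or 2.10-fold lower (adjusted p = 7.47e-05, limma). The groups did not overlap and the call held under every alternative. Of 25 histone genes tied to replication 4 fell, where 5.43% of all genes did, and the median was -0.13. The others were H4c14, H4c8 and H4c9, which share nearly identical coding sequence. The count was 2 without control replicate 1, control replicate 3 or exposed replicate 1, and 1 with the 24 h arrays alone. H4c14 did not pass without control replicate 1 or exposed replicate 1 (adjusted p = 0.0565 and 0.0582), and H4c8, whose groups overlapped, did not pass when any array except exposed replicate 3 was left out (adjusted p = 0.0581 to 0.186). Histone genes are near-identical copies, so which of them gave the signal is uncertain.

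Hmgn5, a nucleosome-binding protein gene, had 7.14, 6.93 and 7.0 in exposed arrays, against 7.79, 7.76 and 8.07 in control arrays (-0.85 ± 0.11, adjusted p = 0.000556, limma). Zmat5, a protein of the minor spliceosome, had 5.33, 5.82 and 5.72 in exposed arrays, against 6.62, 6.35 and 6.61 in control arrays (-0.91 ± 0.13, adjusted p = 0.00115, limma). Both were lower in every exposed array and passed under every alternative. The zinc finger gene Zfp97 fell by 0.92 on the log2 scale, with exposed arrays at 4.82 to 4.93 and control arrays at 5.65 to 6.01. Cd59a, an inhibitor of complement, had 5.82, 6.91 and 7.04 in exposed arrays, against 7.48, 7.55 and 7.31 in control arrays (-0.86 ± 0.21, adjusted p = 0.0222, limma). Its exposed replicate 1 was the lowest of the 6 arrays, and the gene did not pass without control replicate 1, 2 or 3 (adjusted p = 0.0525 to 0.072).

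**Figure D2:**
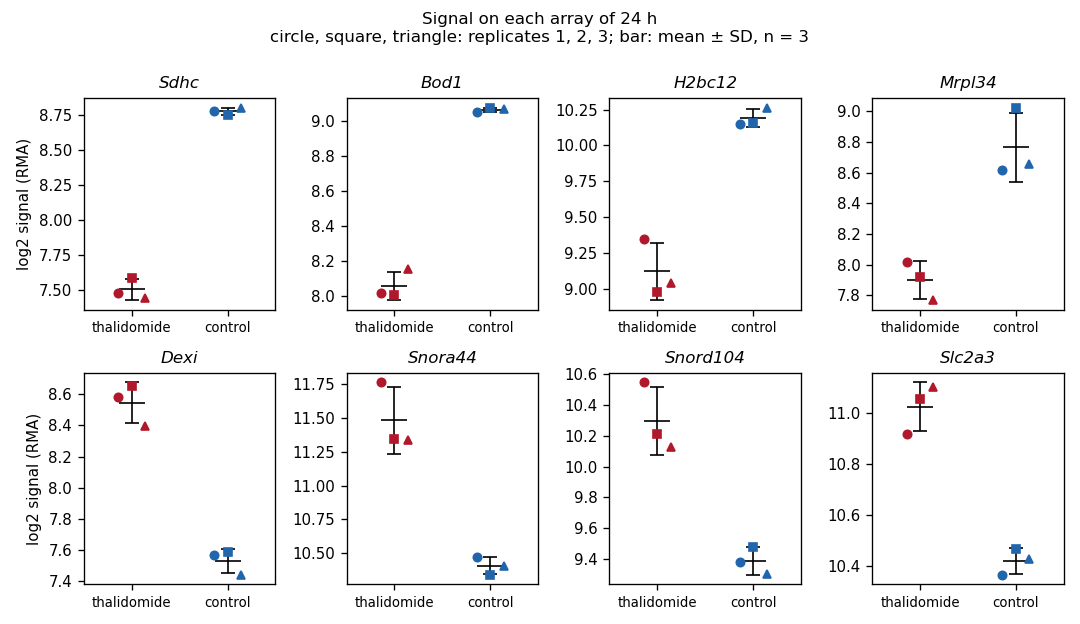
Log2 signal (y axis) of 8 genes on each array of 24 h, with thalidomide left and control right, a symbol for each replicate, and a bar with whiskers for the mean ± SD of 3 arrays. Exposed arrays lie below all controls for Sdhc, Bod1, H2bc12 and Mrpl34 and above them for Dexi, Snora44, Snord104 and Slc2a3, and exposed replicate 1 is the highest for both small nucleolar RNAs. The y axes do not start at 0.

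Dexi, first described as a transcript induced by dexamethasone, had the smallest p-value among the named genes that rose. It had 8.58, 8.65 and 8.40 in exposed arrays, against 7.57, 7.58 and 7.44 in control arrays. The nearest arrays of the groups were 0.815 apart, and the difference was 1.01 ± 0.09, or 2.02-fold higher (adjusted p = 2.56e-05, limma). Dexi passed under every alternative, as did Stx6, a syntaxin of the trans-Golgi network, with 8.62, 8.61 and 8.73 in exposed arrays, against 8.11, 7.97 and 8.09 in control arrays (0.59 ± 0.06, adjusted p = 0.000137, limma). Cldn4, a tight junction claudin, had 7.49, 7.53 and 7.67 in exposed arrays, against 7.04, 6.85 and 6.69 in control arrays (0.70 ± 0.12, adjusted p = 0.00244, limma). Of 18 claudin and junction genes, Cldn4 and the keratin Krt8 rose (11.1%, against 1.42% of all genes). The desmosome gene Pkp2 fell (5.56%, against 5.43% of all genes), 13 of the 18 had values below 0, and the median was -0.05. Krt8 (0.27 ± 0.07) and Pkp2 (-0.34 ± 0.09) missed the threshold without 5 and 6 of the 6 arrays (adjusted p = 0.0501 to 0.132 for Krt8 and 0.0545 to 0.146 for Pkp2). Krt8 passed without exposed replicate 1.

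Small nucleolar RNAs mostly guide chemical changes of ribosomal RNA, the C/D box class directing methylation and the H/ACA box class pseudouridylation, and most lie in introns of other genes. Of 78 RNAs measured in the list 18 rose (23.1%) and 0 fell, against 1.42% of all genes and 2.2% of the brightest bin, which held 59 of them. The median was 0.23, with 12 of 47 C/D box members (median 0.28) and 5 of 26 H/ACA box members (median 0.15) higher. The other members were small Cajal body RNAs (Scarna genes), and the remaining RNA that rose was among them. The exposed arrays were unequal: the list's median relative to the control means was 0.42 in exposed replicate 1, against 0.14 and 0.16 in exposed replicates 2 and 3. Without exposed replicate 1 the median was 0.14 and 8 members rose, and without control replicate 1 or control replicate 3 there were 8 and 10. After cyclic loess 21 rose (median 0.28), and with the 24 h arrays alone 3. Short RNAs of this kind also depend on how RNA is isolated and labelled, and the part of that in the result was not tested.

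Snora44, an H/ACA box RNA, had log2 signals of 11.76, 11.34 and 11.34 in exposed arrays, against 10.47, 10.34 and 10.41 in control arrays, a difference of 1.07 ± 0.11, or 2.10-fold higher (adjusted p = 0.000102, limma). Snord104, of the C/D box class, had 10.55, 10.21 and 10.13 in exposed arrays, against 9.38, 9.48 and 9.30 in control arrays (0.91 ± 0.11, adjusted p = 0.000436, limma). For both the highest array was exposed replicate 1 and every exposed array was above every control. Snord111 had 7.87, 7.83 and 8.16 in exposed arrays, against 7.18, 7.15 and 7.34 in control arrays (0.73 ± 0.13, adjusted p = 0.0037, limma), and there exposed replicate 3 was the highest. These 3 passed under every alternative. Snora73a (0.64 ± 0.12) and Snora73b (0.58 ± 0.10), named after their values were seen, are near-identical copies that probes may not separate.

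Of 68 cytosolic ribosomal protein genes 8 fell (11.8%, against 5.43% of all genes) and 2 rose, with a median of -0.13. In the brightest bin 7 of 43 members fell, near the 13.3% of all genes of that bin. Rpl32 had 10.60, 10.62 and 10.56 in exposed arrays, against 11.03, 11.17 and 11.03 in control arrays (-0.48 ± 0.07, adjusted p = 0.00122, limma). Rps18 fell (-0.55 ± 0.11, adjusted p = 0.00806, limma), but its 2 dimmer probe sets had differences of 0.19 and 0.01, and with the mean of the 3 probe sets it did not pass. Rpl39l, a paralog of Rpl39 best known from testis, rose (0.55 ± 0.12, adjusted p = 0.0134, limma), and it did not pass without control replicate 1 or exposed replicate 3 (adjusted p = 0.0519 and 0.0516). The other member that rose, Rpl38 (0.25 ± 0.06), was named after its values were seen. Without control replicate 1, 3 members were lower and 0 higher, without control replicate 3, exposed replicate 1 or exposed replicate 3, 4 were lower. Ribosomal protein genes have many processed copies in the genome, which probes may share.

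The RNA of the drug's own receptor was lower. Crbn, which encodes cereblon, had 7.82, 8.13 and 8.13 in exposed arrays, against 8.41, 8.32 and 8.49 in control arrays. All exposed arrays were below all controls, by at least 0.18, and exposed replicate 1 was the lowest. The difference was -0.38 ± 0.09 (adjusted p = 0.0215, limma), and it did not pass with the 24 h arrays alone or without control replicate 1, control replicate 3 or exposed replicate 1 (adjusted p = 0.068 to 0.105). Cul4a, the ligase's scaffold, had 7.98, 8.09 and 7.93 in exposed arrays, against 8.42, 8.25 and 8.35 in control arrays (-0.34 ± 0.07, adjusted p = 0.00888, limma), and it did not pass with the 24 h arrays alone. The alternative scaffold Cul4b (-0.19 ± 0.07, adjusted p = 0.12) and the adaptor Ddb1 (0.13 ± 0.06, adjusted p = 0.177) did not pass in limma's test. Of 18 known drug-dependent substrates of cereblon and partner genes measured, only Ube2g1 passed (5.56%, against 6.86% of all genes), a ubiquitin-conjugating enzyme that works with the ligase. Its difference was -0.31 ± 0.08 (adjusted p = 0.0276, limma), and it did not pass after cyclic loess, with the 24 h arrays alone, or without control replicate 1, control replicate 3, exposed replicate 1 or exposed replicate 2 (adjusted p = 0.0714 to 0.117). Sall4, a substrate tied to limb defects, had 10.25, 10.06 and 10.05 in exposed arrays, against 9.97, 10.11 and 10.11 in control arrays, and its groups overlapped (0.06 ± 0.07, adjusted p = 0.703, limma). Rbx1 and Zfp91 were not analysed here.

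The proteasome, which destroys the ligase's marked proteins, had 7 of 38 genes lower (18.4%) and 1 higher, with a median of -0.12. The 29 members in the brightest bin held all 7 lower genes, and 13.3% of all genes of that bin fell. Psmd6, a lid subunit, had 8.26, 8.36 and 8.26 in exposed arrays, against 8.81, 8.65 and 8.66 in control arrays (-0.41 ± 0.07, adjusted p = 0.00322, limma), and the catalytic subunit gene Psmb5 had 8.84, 8.95 and 8.92 in exposed arrays, against 9.31, 9.32 and 9.32 in control arrays (-0.41 ± 0.08, adjusted p = 0.00629, limma). The member that rose was Psmd2 (0.26 ± 0.06), named after its values were seen. With the 24 h arrays alone 0 members passed, after cyclic loess 3 were lower, and without exposed replicate 1 or control replicate 3 the lower members were 3 and 4.

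Several genes of the primitive streak were lower. Sp5, a transcription factor induced directly by Wnt signalling in the streak, had log2 signals of 7.29, 7.01 and 7.08 in exposed arrays, against 7.95, 7.80 and 7.83 in control arrays. The lowest control was 0.50 above the highest exposed array. The difference was -0.73 ± 0.10, or 1.66-fold lower (adjusted p = 0.000944, limma), and it passed under every alternative. Tdgf1 (Cripto), a co-receptor of Nodal, had 10.39, 10.45 and 10.53 in exposed arrays, against 11.12, 11.22 and 11.26 in control arrays, a clear gap. Its difference of -0.75 ± 0.21 had an adjusted p of 0.0432 (limma), with the spread of all 18 arrays in the test. It passed with the 24 h arrays alone but not after cyclic loess (adjusted p = 0.0962), nor when any of the 6 arrays was left out of the fit of all arrays (adjusted p = 0.0725 to 0.134). The ligand Wnt8a had 7.53, 7.21 and 6.98 in exposed arrays, against 7.89, 7.93 and 7.72 in control arrays (-0.60 ± 0.14, adjusted p = 0.0188, limma), and it did not pass without control replicate 1, control replicate 2 or exposed replicate 3 (adjusted p = 0.0547 to 0.0727). Fgf8 also fell (-0.49 ± 0.14, adjusted p = 0.0456, limma) although its groups overlapped, and it did not pass without control replicate 1, control replicate 3, exposed replicate 1 or exposed replicate 2 (adjusted p = 0.118 to 0.216).

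Of 29 streak and nascent mesoderm genes 4 fell (13.8%, against 5.43% of all genes) and 1 rose, and 18 had values below 0, with a median of -0.25. The median was -0.16 after cyclic loess and also -0.16 without control replicate 2 or without exposed replicate 3. The single exposed arrays had medians of -0.10, -0.16 and -0.34. The gene that rose was the caudal homeobox gene Cdx4 (0.47 ± 0.09, adjusted p = 0.00759, limma), named after its values were seen. Of the streak regulators with strong signals, and named after their values were seen, Mixl1 had 10.05, 9.82 and 9.78 in exposed arrays, against 10.47, 10.44 and 10.25 in control arrays, and Eomes had 9.12, 9.14 and 8.99 in exposed arrays, against 9.35, 9.34 and 9.31 in control arrays. Neither passed in limma's test (Mixl1 -0.50 ± 0.21, adjusted p = 0.189, and Eomes -0.25 ± 0.19, adjusted p = 0.492). Their groups did not overlap, which was so for 3516 of all genes with the exposed arrays lower. The Brachyury gene T was not analysed here. After cyclic loess 2 streak genes were lower, and without control replicate 1 there was 1, without control replicate 3, exposed replicate 2 or exposed replicate 3 there were 2.

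Wnt targets as a list did not move together: of 17 measured, Sp5 and Myc (-0.46 ± 0.10, adjusted p = 0.0105, limma) fell. Their share was 11.8%, against 5.43% of all genes and 13.3% of the brightest bin, which held 9 of the 17. The list's median was -0.04. The promoter of Sp5 is shown because Wnt signals act through TCF and LEF factors, which bind sequences such as CTTTGAT and CTTTGAA. The RefSeq window for mouse assembly GRCm38.p6, chr2:70474673-70474972 on the plus strand, holds 250 bases before the gene's start and 50 after it, and the capitals mark a single match to these motifs.
Sp5: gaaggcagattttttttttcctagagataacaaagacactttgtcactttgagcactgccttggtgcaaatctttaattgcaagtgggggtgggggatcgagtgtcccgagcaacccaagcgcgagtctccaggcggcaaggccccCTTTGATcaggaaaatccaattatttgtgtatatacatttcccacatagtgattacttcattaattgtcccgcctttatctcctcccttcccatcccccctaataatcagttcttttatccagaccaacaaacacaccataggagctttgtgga
The match lies 104 bases before the start. Both motifs were searched on both strands, and they share their first letters, CTTTGA. Of 27025 genes with a promoter window in the table, 9.88% held either motif. Of the 6 streak and Wnt genes that passed, 3 had a window (Sp5, Cdx4 and Tdgf1) and 1 held a match.

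**Figure D3:**
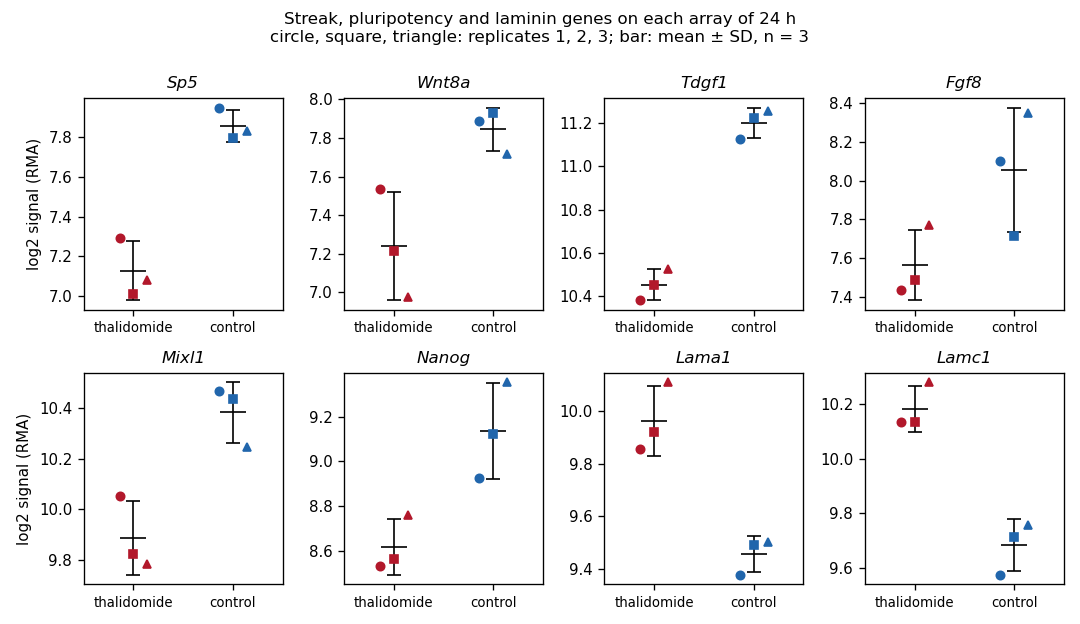
Log2 signal (y axis) of streak genes, Nanog and laminin genes on each array of 24 h, thalidomide left and control right, with a symbol for each replicate and a bar for the mean ± SD of 3 arrays. Sp5, Wnt8a and Tdgf1 are lower and Lama1 and Lamc1 higher in all exposed arrays, Fgf8 overlaps, and Mixl1 and Nanog do not overlap but did not pass. The y axes do not start at 0.

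Of the 7 genes that passed with a decrease of at least 2-fold, 4 were microRNA genes of a single cluster, Mir302a, Mir302b, Mir302c and Mir302d, which were named after their values were seen. The miR-302 family is abundant in pluripotent and early epiblast cells, where its members promote the cell cycle and restrain differentiation, and the cluster lies with Mir367 in an intron of Larp7. The 4 hairpins are shown because they share a run of 16 bases, in capitals, which holds most of the mature microRNA of the 3' arm, so probes of this cluster may read more than 1 member. The sequences are those of RefSeq on GRCm38.p6, plus strand, in the order of the genome: Mir302b at chr3:127545228-127545301, Mir302c at chr3:127545363-127545430, Mir302a at chr3:127545496-127545564 and Mir302d at chr3:127545624-127545689.
Mir302b: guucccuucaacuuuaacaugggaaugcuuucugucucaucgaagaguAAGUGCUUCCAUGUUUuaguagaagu
Mir302c: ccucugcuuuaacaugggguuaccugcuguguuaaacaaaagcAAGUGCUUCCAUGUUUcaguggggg
Mir302a: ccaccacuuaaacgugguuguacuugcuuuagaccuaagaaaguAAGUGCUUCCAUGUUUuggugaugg
Mir302d: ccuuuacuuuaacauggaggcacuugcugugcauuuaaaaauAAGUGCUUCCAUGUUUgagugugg
Mature forms with the seed (bases 2 to 8) in capitals show that miR-302b-3p and miR-302d-3p share a seed, that the entry of miR-302c-3p begins 1 base later so that its seed is shifted, and that miR-367-3p belongs to another family.
mmu-miR-302b-3p: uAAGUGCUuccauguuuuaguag
mmu-miR-302d-3p: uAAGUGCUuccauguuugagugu
mmu-miR-302c-3p: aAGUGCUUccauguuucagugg
mmu-miR-367-3p: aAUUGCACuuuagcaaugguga

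Mir302d had log2 signals of 4.62, 5.49 and 5.79 in exposed arrays, against 6.68, 6.59 and 6.83 in control arrays, a difference of -1.40 ± 0.29, or 2.64-fold lower (adjusted p = 0.00849, limma). Mir302c had 4.90, 5.84 and 5.87 in exposed arrays, against 6.67, 6.82 and 7.0 in control arrays (-1.29 ± 0.32, adjusted p = 0.0221, limma). Mir302b had 5.07, 6.13 and 6.51 in exposed arrays, against 6.87, 7.44 and 7.09 in control arrays (-1.23 ± 0.29, adjusted p = 0.0193, limma). In each case exposed replicate 1 was the lowest array and the groups did not overlap. Mir302a had 5.13, 5.76 and 6.07 in exposed arrays, against 6.71, 6.61 and 6.90 in control arrays (-1.08 ± 0.23, adjusted p = 0.0102, limma), in the same pattern. None of the 4 passed with the 24 h arrays alone. Mir302d passed when any single array was left out, whereas Mir302a, Mir302b and Mir302c did not without exposed replicate 1 or control replicate 3, and Mir302b and Mir302c also not without control replicate 2 and control replicate 1 in turn (adjusted p = 0.0516 to 0.117 for the 3 genes). Without exposed replicate 1 the differences ran from -1.06 (Mir302d) to -0.82 (Mir302b).

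Mir367 (-0.51 ± 0.28, adjusted p = 0.323) and Larp7 (-0.12 ± 0.08, adjusted p = 0.436) did not pass in limma's test, and the groups of both overlapped. Whether Larp7 and the cluster share a transcript was not tested. In control arrays the miR-302 genes fell steeply with culture time: Mir302d averaged 6.70 ± 0.12 at 24 h, 5.08 ± 0.12 at 48 h and 3.48 ± 0.33 at 72 h. At 48 h the differences of Mir302a, Mir302b, Mir302c and Mir302d were -0.11, 0.27, -0.21 and 0.33, and none of the 4 passed at 48 h or 72 h. Nanog, a pluripotency factor named after its values were seen, had 8.53, 8.56 and 8.76 in exposed arrays, against 8.93, 9.12 and 9.35 in control arrays of 24 h, and did not pass (-0.52 ± 0.25, adjusted p = 0.242, limma). The part of stage in this difference was not tested. The arrays also do not separate the precursor from the mature microRNA.

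Over all 483 microRNA genes 13 rose (2.69%) and 6 fell (1.24%), with a median of 0.08. The shares of all genes were 1.42% higher and 5.43% lower. Without control replicate 1, control replicate 3 or exposed replicate 1 the microRNA genes that rose were 3, 5 and 6 and those that fell were 4, 2 and 3, and with the 24 h arrays alone 0 rose and 2 fell. Besides the miR-302 genes, Mir3965 (-0.73 ± 0.12, adjusted p = 0.00282) and Mir692-1 (-0.24 ± 0.06, adjusted p = 0.0333) fell by limma's test. These and the microRNA genes that follow were named after their values were seen. Mir301b had 5.73, 6.09 and 5.73 in exposed arrays, against 4.77, 5.12 and 5.39 in control arrays (0.76 ± 0.14, adjusted p = 0.00477, limma). Mir92b, of the miR-25 family, had 8.0, 7.87 and 7.95 in exposed arrays, against 7.23, 7.52 and 7.44 in control arrays (0.54 ± 0.13, adjusted p = 0.017, limma). Mir28c had the largest increase among the named genes that passed, with 4.59, 5.36 and 5.61 in exposed arrays, against 4.51, 3.40 and 4.40 in control arrays (1.08 ± 0.30, adjusted p = 0.0402, limma). Its nearest arrays were only 0.08 apart. Mir28c did not pass without control replicate 2, control replicate 3, exposed replicate 2 or exposed replicate 3 (adjusted p = 0.0654 to 0.144), and Mir92b did not without control replicate 1, control replicate 3 or exposed replicate 1 (adjusted p = 0.0504 to 0.0813).

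**Figure D4:**
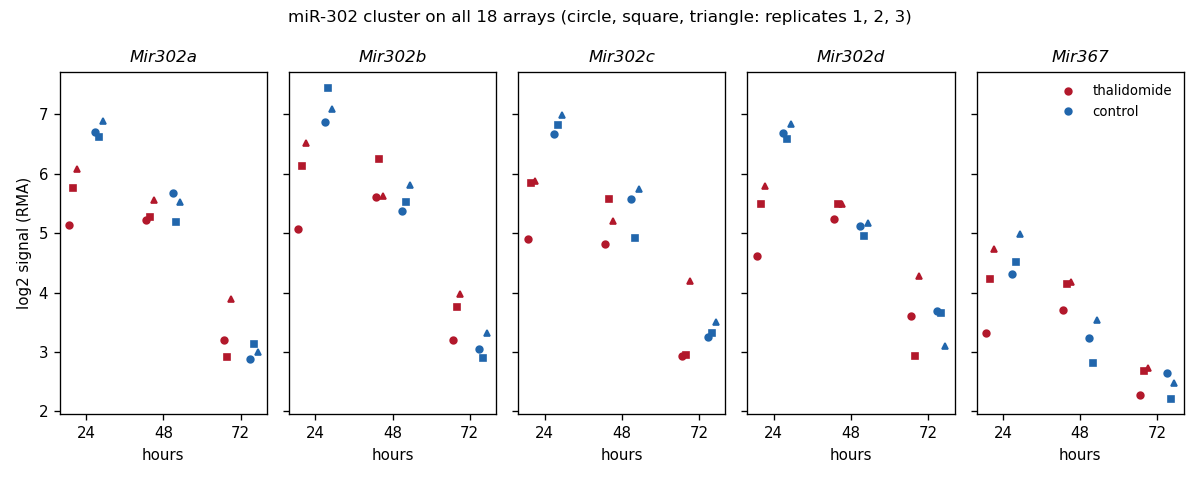
Log2 signal (y axis) of the miR-302 genes and Mir367 on all 18 arrays against hours (x axis), thalidomide left of control at each time, with a symbol for each replicate. At 24 h the exposed arrays lie below the controls for Mir302a to Mir302d, with exposed replicate 1 lowest, and both groups fall to between 2.89 and 4.27 for these 4 genes at 72 h.

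Pluripotency genes, as markers of the stem cells, did not pass: 0 of 23 measured members of the list for naive and core pluripotency (median 0.02), with Pou5f1 (Oct4) at 6.52, 6.70 and 6.41 in exposed arrays, against 6.77, 6.93 and 6.86 in control arrays (-0.31 ± 0.09, adjusted p = 0.0538, limma). Sox2 (0.18 ± 0.17) and Lin28a (-0.17 ± 0.07), named after their values were seen, did not pass either. Lists for the post-implantation epiblast (12 genes), heart (24), blood and endothelium (18), Hox genes (36), mesenchyme (22), trophoblast (14) and germ cells (12) had 0 members that passed. Of all genes 6.86% passed, so lists this short would hold few, and 0 does not show that these genes were unchanged. The brightest bin, where most calls lay, held 0 of the 36 Hox genes. In the extraembryonic endoderm list 4 of 21 genes rose (19.0%, against 1.42% of all genes and 2.2% of the brightest bin, which held 15 of the 21) and 0 fell: the laminin chains Lama1, Lamb1 and Lamc1 of the basement membrane and the parathyroid hormone receptor Pth1r, with a list median of 0.10. Members that did not pass included Gata4 (0.10), Gata6 (-0.13), Sox7 (0.12), Sox17 (0.02) and Foxq1 (-0.17), and 7 of the 21 had values below 0. The list's median was 0.02 without control replicate 3 and 0.03 without exposed replicate 3. Lama1 had 9.85, 9.92 and 10.11 in exposed arrays, against 9.38, 9.49 and 9.50 in control arrays (0.50 ± 0.13, adjusted p = 0.0338, limma). Lamc1 had 10.14, 10.13 and 10.28 in exposed arrays, against 9.57, 9.71 and 9.76 in control arrays (0.50 ± 0.12, adjusted p = 0.0162, limma). Both were higher in every exposed array. None of the list passed with the 24 h arrays alone, without control replicate 1 or without exposed replicate 3, and without control replicate 2, control replicate 3 or exposed replicate 1 there were 2, 1 and 1. In such bulk samples more cells of a type and more RNA per cell cannot be told apart.

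Other signalling and patterning genes that passed were few. Tgfb1, a growth factor (-0.62 ± 0.15, adjusted p = 0.0193), Cyp26a1, which degrades retinoic acid (-0.58 ± 0.14, adjusted p = 0.0214), the immediate early gene Ier3 (-0.47 ± 0.10, adjusted p = 0.0107) and the BMP target Id3 (-0.37 ± 0.08, adjusted p = 0.016) fell by limma's test. Pax2 of the neural list (0.44 ± 0.12, adjusted p = 0.0324), the vessel growth factor Angpt2 (0.43 ± 0.12, adjusted p = 0.0375) and Mvd of cholesterol synthesis (0.36 ± 0.09, adjusted p = 0.0184) rose by the same test. Each of these 7 lost its call without at least 1 array, and all did with the 24 h arrays alone. Their lists had 1 or 2 members that passed, of 16 to 22 measured, and medians between -0.11 and 0.05. The shares that passed were 5.0% to 10.5%, against 6.86% of all genes in either direction, so these counts say little about the lists. Of 25 limb development genes, Fgf8 alone passed (4.0% lower, against 5.43% of all genes). Chosen after their values were seen, Nt5e, the ecto-enzyme CD73, had 6.24, 6.24 and 6.06 in exposed arrays, against 7.09, 6.68 and 6.95 in control arrays (-0.73 ± 0.10, adjusted p = 0.00113, limma). Upp1, a uridine phosphorylase, had 8.19, 7.98 and 8.23 in exposed arrays, against 8.83, 8.67 and 9.01 in control arrays (-0.70 ± 0.11, adjusted p = 0.00226, limma). Both were lower in every exposed array and passed under every alternative. At 48 h their log2 changes were 0.03 and 0.04 and did not pass.

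Stress pathways gave small values. Of 19 genes of the NRF2 antioxidant response 4 fell (21.1%) and 0 rose (median -0.14), led by Gclm, which makes part of the glutathione-forming enzyme (-0.34 ± 0.07, adjusted p = 0.00909, limma), followed by Txn1, Sod2 and Cat. The 13 in the brightest bin held all 4, and 13.3% of all genes of that bin fell. After cyclic loess 1 was lower, and without control replicate 3 there were 0 and without control replicate 1, control replicate 2 or exposed replicate 1 there was 1. Of 18 p53 targets 3 fell (16.7%), all among the 14 in the brightest bin, where 13.3% of all genes did: Cdkn1a (-0.34 ± 0.10), Perp (-0.34 ± 0.09) and Phlda3 (-0.31 ± 0.08), and the list's median of -0.04 became 0.04 after cyclic loess, when 0 were lower and 1 higher. Without any single control array or without exposed replicate 1 no p53 target was lower, and without either of the other exposed arrays 1 was. Cbr1, a carbonyl reductase, had 7.78, 7.78 and 7.86 in exposed arrays, against 8.48, 8.38 and 8.50 in control arrays (-0.65 ± 0.07, adjusted p = 0.00013, limma), and it passed under every alternative. The 8 measured targets of the aryl hydrocarbon receptor did not pass (6.86% of all genes did), among them Cyp1a1 at 5.03, 5.39 and 5.40 in exposed arrays, against 5.57, 5.15 and 5.11 in control arrays.

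Of 24 interferon-linked genes 4 fell (16.7%, against 5.43% of all genes) and 0 rose, with a median of -0.06, and with the 24 h arrays alone 1 fell. Bst2 (tetherin), which holds budding viruses at the cell surface, had 6.44, 6.49 and 6.48 in exposed arrays, against 7.31, 7.40 and 7.44 in control arrays. The groups were 0.81 apart at their nearest, and the difference was -0.91 ± 0.15 (adjusted p = 0.00216, limma), which held under every alternative. Usp18, a brake on interferon signalling, had 6.05, 6.06 and 6.09 in exposed arrays, against 6.53, 6.51 and 6.80 in control arrays (-0.55 ± 0.09, adjusted p = 0.00302, limma). Ifitm2 (-0.48 ± 0.12) and Ifitm3 (-0.37 ± 0.06), restriction factors against virus entry that are close paralogs, fell too, and Ifitm3 was named after its values were seen. Ifitm2 did not pass without control replicate 1, control replicate 3, exposed replicate 1 or exposed replicate 3 (adjusted p = 0.0552 to 0.131).

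Some of the largest increases were in dim probe sets of gene families with tissue-limited expression. The rule for named genes took Klra14-ps (1.06 ± 0.20), Defa41 (0.78 ± 0.15), Ugt2b37 (0.77 ± 0.18), Cmtm1 (0.74 ± 0.22) and Ly6g (0.71 ± 0.12), all with signals below 5 on every array. No detection values were used, so whether these genes were expressed was not tested. Of 117 genes of the keratin-associated, defensin, Ly49 and UDP-glucuronosyltransferase 2 families 6 rose (5.13%), with a median of 0.11, and of 1411 chemosensory receptor genes 18 rose (1.28%) and 3 fell, with a median of 0.06. The share among receptor genes was near the 1.42% of all genes. The receptor genes that rose numbered 10 after cyclic loess (median 0.01), 1 with the 24 h arrays alone, and 3, 6 and 7 without control replicate 1, control replicate 3 and exposed replicate 1. Of 13 markers of macrophages and neutrophils Ly6g and S100a9 rose (15.4%, against 1.42% of all genes). S100a9 did not pass after cyclic loess or with the 24 h arrays alone. It also did not pass without 5 of the 6 arrays in turn (adjusted p = 0.0706 to 0.199, limma). Of the 13 markers 7 had values below 0, the lowest being S100a8 (-0.20), named after its values were seen. These markers had a list median of -0.06 and mean signals of 4.56 to 4.63 in exposed and 4.44 to 4.67 in control arrays. Their values beside these results are given without a test of their part.

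The same genes were read at 48 h and 72 h on other arrays, which share none with the 24 h groups but enter the same estimate of spread. Of the 1205 genes lower at 24 h, 96.2% had a negative difference at 48 h (48.8% of all genes did) with a median of -0.26. At 72 h 59.6% did (48.7% of all genes), with a median of -0.02. Of the 316 higher genes, 83.9% had a positive difference at 48 h (51.2% of all genes did), with a median of 0.17. At 72 h 56.3% did, near the 51.3% of all genes, with a median of 0.02. At 48 h 1349 genes passed (6.08%), and at 72 h 2 did (0.00902%), with 2023 genes at an unadjusted p under 0.05 by limma, where chance gives 1109. The test of the difference itself between 48 h and 24 h called 0 genes (0.0%) by limma, with 1701 at an unadjusted p under 0.05 and 0 called by any alternative. Between 72 h and 24 h the effect differed for 110 genes (0.496%). Of these 99 had passed at 24 h (80 lower, 19 higher), 96 had a smaller absolute value at 72 h, and 65 had also passed at 48 h. Both tests that picked the 99 genes use the same 24 h arrays. That choice favours smaller values at 72 h, so the count of 96 is no further support. The count of 110 was 18, 25, 27 and 50 without control replicate 3, exposed replicate 1, control replicate 1 and control replicate 2 of 24 h, and 60 without exposed replicate 2. At 48 h and 72 h only the control titles have the re-analysis tag, so tag and exposure cannot be told apart at those times.

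Sdhc averaged 7.50 ± 0.07 in exposed and 8.77 ± 0.03 in control arrays at 24 h, 7.36 ± 0.11 and 8.73 ± 0.05 at 48 h, and 8.57 ± 0.17 and 8.67 ± 0.08 at 72 h, and its effect at 72 h minus that at 24 h was 1.17 (adjusted p = 0.000477, limma). Dexi averaged 8.55 ± 0.13 in exposed and 7.53 ± 0.08 in control arrays at 24 h, 8.52 ± 0.15 and 7.67 ± 0.06 at 48 h, and 7.81 ± 0.11 and 7.81 ± 0.05 at 72 h, a difference of effects of -1.01 (adjusted p = 0.00241, limma). Both genes thus had their exposure difference at 24 h and 48 h and values close to control at 72 h. H2bc12 (differences of -1.07, -1.17 and 0.18 at 24, 48 and 72 h), Bod1 (-1.01, -0.90 and 0.02), Bst2 (-0.91, -0.95 and 0.16) and Stx6 (0.59, 0.51 and -0.04) followed the same course. Sp5, in contrast, had differences of -0.73, -0.03 and 0.11, and its control means were 7.86, 6.40 and 5.97 at the 3 times. The difference of its effect between 48 h and 24 h did not pass, and that between 72 h and 24 h did (0.84, adjusted p = 0.0228, limma). The medians of the respiratory list were -0.20, -0.17 and 0.00 at the 3 times, those of the mitochondrial ribosome -0.19, -0.15 and 0.01, and those of the small nucleolar RNAs 0.23, 0.10 and 0.11.

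**Figure D5:**
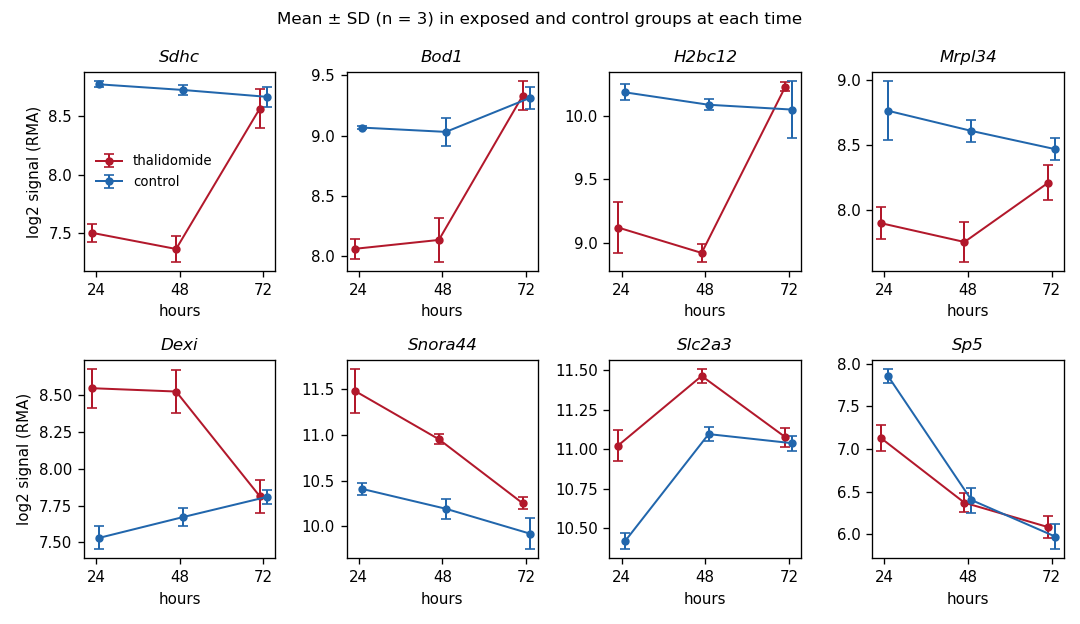
Mean log2 signal ± SD (y axis, 3 arrays) in exposed (red) and control (blue) groups at 24, 48 and 72 h (x axis) for 8 genes. Sdhc, Bod1, H2bc12, Mrpl34 and Dexi keep their difference at 48 h, and at 72 h the differences of Sdhc, Bod1 and Dexi are -0.10, 0.02 and 0.01, and Sp5 has differences of -0.03 at 48 h and 0.11 at 72 h. The y axes do not start at 0.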

How the data were processed

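The authors deposited log2 signals, and the submitters' processing notes name RMA and Expression Console 1.3. Which genome build they used is not stated there. No further normalization was applied. Since RMA equalizes the distributions of the arrays, a change is relative to the rest of its array. Of 41345 probe sets, 23521 had a single gene symbol in the platform annotation. The brightest probe set stood for a gene with several, which left 22180 genes. limma 3.58.1 in R 4.3.3 fitted 1 mean per group over all 18 arrays (12 residual and 4.349 prior degrees of freedom, two-sided tests), and its steps were tested on simulated data. An exact test on 3 against 3 arrays cannot go below p = 0.1. The members and the gene lists were chosen with earlier results of these data known. Named genes were the 10 largest changes in each direction among genes that passed without overlap (no predicted loci or microRNAs), from each list the 3 strongest members that passed, or the smallest p where none did, all members of lists of at most 8 genes, Sdhc, Bod1, Dexi, Sp5, Crbn and Sall4, and, for each difference between times, the 6 genes with the smallest adjusted p that passed there and at 24 h. Others are said to be named after their values were seen. The alternatives were array weights, cyclic loess, only genes whose signal reached the median, the mean of probe sets, the 24 h arrays alone, the replicate number as a block, limma's trend and robust options, and each 24 h array left out. That made up to 13 alternatives per gene. A fit of all probe sets served only for the total count and for single probe sets. Calls under every alternative do not include it. Deviations of same-numbered exposed and control arrays correlated at -0.04, -0.07 and 0.12, and those of differently numbered arrays at -0.15 to 0.19. With so few arrays these values cannot decide whether the numbers pair the arrays. The precision is limited by the number of arrays.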

Additional observations from a re-analysis of the deposited data

Results flagged for a closer look

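The effect of exposure at 72 h minus that at 24 h differed from 0 for 110 genes by limma's test of the difference. Among named genes that were lower at 24 h, the difference of effects was 1.17 for Sdhc, 1.25 for H2bc12, 1.02 for Bod1, 1.07 for Bst2, 1.00 for Zmat5, 0.73 for Hmgn5, 0.91 for Upp1 and 0.73 for Nt5e. It was 0.78 for Ndufb8, 0.70 for Cox6b2, 0.67 for Mrps21, 0.64 for Mrpl52, 0.58 for Idh3a, 0.73 for Rps18, 0.84 for Sp5, 0.59 for Perp and 0.68 for Cbr1. Among those that were higher at 24 h it was -0.74 for Snora44, -0.77 for Snord104, -1.01 for Dexi, -0.87 for Ly6g, -0.97 for Cldn4, -0.57 for Slc2a3, -0.64 for Stx6 and -0.88 for Mir449c. Myl3, a cardiac myosin light chain gene, passed at neither time, and its difference of effects was -0.97. At 72 h the exposed arrays lack the re-analysis tag of their controls, and its part in these values was not tested.

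Of 16010 probe sets that the table of genes does not list, 181 were higher after 24 h of exposure (1.13%) and 293 lower (1.83%), against 1.42% and 5.43% of the genes tested. They lie outside the genes reported on above.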

How the results depend on the processing

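The count of 1521 genes at 24 h was 121 with the 24 h arrays alone and 581 to 1295 when 1 array was left out. It stayed within 1.5 times under the other alternatives, among them 1297 with the replicate number as a block. The labels do not say that equal replicate numbers mark a shared culture, so that block is not known to be a paired analysis. The effect at 48 h minus 24 h gave 0 genes under every alternative. The count of 110 genes for 72 h minus 24 h was 66 after cyclic loess, 640 with only genes whose signal reached the median, 70 with the replicate block, 532 with limma's trend and robust options, and 18 to 119 when 1 array of 24 h was left out, an alternative chosen after seeing the data. No named gene changed direction past the threshold. Some list medians near 0 changed sign. The p53 targets had 3 lower members and a median of -0.04, but 1 higher member and a median of 0.04 after cyclic loess. The median of the Wnt targets was -0.04, and 0.01 without exposed replicate 3. The causes were not tested. Without detection values, dim signals cannot be told from background.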
